A study of Mus musculus with 8 samples.

Results

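The proteasome subunit genes described here encode the core particle, the regulatory particle and the interferon-inducible parts of the proteasome, and they numbered 36 of the 39107 genes with a count in the 8 libraries. They were chosen by name. 14 encode the 20S core (the alpha ring genes Psma1 to Psma7 and the beta ring genes Psmb1 to Psmb7), 17 encode the 19S regulatory particle (6 Psmc ATPase genes and 11 Psmd non-ATPase genes), and 5 are immunoproteasome genes (Psmb8, Psmb9, Psmb10, Psme1 and Psme2). RNA was sequenced from sorted bone marrow cells that the study names long-term hematopoietic stem cells (LT-HSCs). The mice were aged 6 months, 4 of them asrij floxed (replicates 1, 3, 4 and 5) and 4 asrij KO (replicates 2, 3, 4 and 5). Floxed mice were homozygous for a loxP-flanked asrij allele (the gene Ociad1) and served as controls. KO mice lacked asrij in the whole body, so other cells of the marrow lacked it as well as the sorted cells. Per the study's methods the 4 mice of each genotype were independent and mice of both sexes were used. The cells taken for sequencing were sorted as LSK CD150+ CD48+. For RT-qPCR and culture the same methods give LT-HSCs as CD48-. The name LT-HSC is therefore the study's, and which cells were sequenced is uncertain.

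The proteasome degrades proteins that carry ubiquitin. Its 20S core is a barrel with the proteolytic sites on beta subunits inside, and the 19S particle caps the barrel, binds ubiquitin, removes it and unfolds the substrate with a ring of ATPases. In blood cells and under interferon the catalytic subunits of Psmb5, Psmb6 and Psmb7 can be replaced by those of Psmb8, Psmb9 and Psmb10, and the PA28 activator made by Psme1 and Psme2 can cap the core, which favours peptides for presentation on MHC class I.

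Ociad1 lay at 31.3 to 66.9 CPM in floxed (CPM being the count scaled to library size and TMM factors) and at 11.7 to 19.7 CPM in KO, a log2 fold change of -1.58 (SE 0.27, adjusted p = 0.0249, edgeR). Library totals were 23412829 to 44874882 counts once each gene was given its highest transcript. Of the stem cell markers Kit lay at 46.8 to 60.2 CPM and Procr at 0.142 to 0.962 CPM. The 11 stem and progenitor markers summed to 155 to 191 CPM, while the 12 neutrophil and monocyte markers summed to 18535 to 59649 CPM. Libraries numbered 4 and 5 separated from those numbered 1 to 3 on the first principal component of all genes (41.3% of the variance), and floxed replicate 3 stood apart from the other floxed libraries on the second (6.64 against 46.9 to 79.2). What the numbers stand for is not given in the labels, and the comparisons were therefore repeated within numbers 1 to 3 and within numbers 4 and 5.

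Reads of many members could also be given to other genes. Of the 36 members, 16 shared stretches of 50 bases with far copies, which are genes of at most 2 exons on another chromosome or over 1000 kb away, and 26 of the 30 copies were processed pseudogenes, made by copying a spliced RNA back into the genome. In 11 members a copy held a stretch that spans a junction of coding exons. Examples are printed for the catalytic gene Psmb5, the activator gene Psme2, the alpha ring gene Psma5 and the 19S scaffold gene Psmd2, because a read of them has no letter that tells the member from its copy. The capitals mark the 2 bases on each side of the junction, and the sequences are from the GENCODE M21 transcripts of GRCm38, 5′ to 3′.
Psmb5, exons 1 and 2, also in Gm3375: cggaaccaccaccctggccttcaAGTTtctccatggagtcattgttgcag
Psme2, exons 2 and 3, also in Psme2b: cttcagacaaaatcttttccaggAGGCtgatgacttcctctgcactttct
Psma5, exons 2 and 3, also in Gm12989: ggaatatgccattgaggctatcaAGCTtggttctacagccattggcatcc
Psmd2, exons 3 and 4, also in Gm5422: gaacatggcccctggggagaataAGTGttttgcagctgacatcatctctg

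The copies often held more counts than the member. Over the 8 libraries Psme2b was given 20103 counts against 1407 for Psme2. Gm5422 was given 38741 against 10674 for Psmd2, and Gm3375 11714 against 4863 for Psmb5. In 12 of the 16 members the copies together exceeded the member in the floxed libraries, and the levels of these members are uncertain. The percent of a member's stretches found in the copy that shared most differed widely. It was 62.1% for Psme2, 49.4% for Psmb5, 37.2% for Psma5 and 25.6% for Psmd2. It was only 2.81% for Psmb1, 2.67% for Psmb6, 1.61% for Psmd14, 0.670% for Psmd13 and 0.0458% for Psmc6. For the remaining members it was 6.13% to 39.9%. How many counts of a copy came from shared stretches was not tested. How the counting treated a read with several matches is not given in the sources used here.

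Overlapping neighbours were a further source of shared reads. Of the 36 members, 18 overlapped another counted gene, against 53.4% of the 21902 genes tested. Where a gene lay within an intron of another, the outer gene had at least the count of the inner one in every library in 4405 of 4405 pairs, of which 2891 were on opposite strands, so the counts took in introns and both strands. Psmb9 overlaps Tap1, the peptide transporter gene beside it on chromosome 17, and Tap1 held 220% of the count of Psmb9. Psmb8 overlaps Gm20496, Psmb10 overlaps Gm16156, Psmb7 overlaps Nek6 and Psma3 overlaps 3110056K07Rik.

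**Figure D1:**
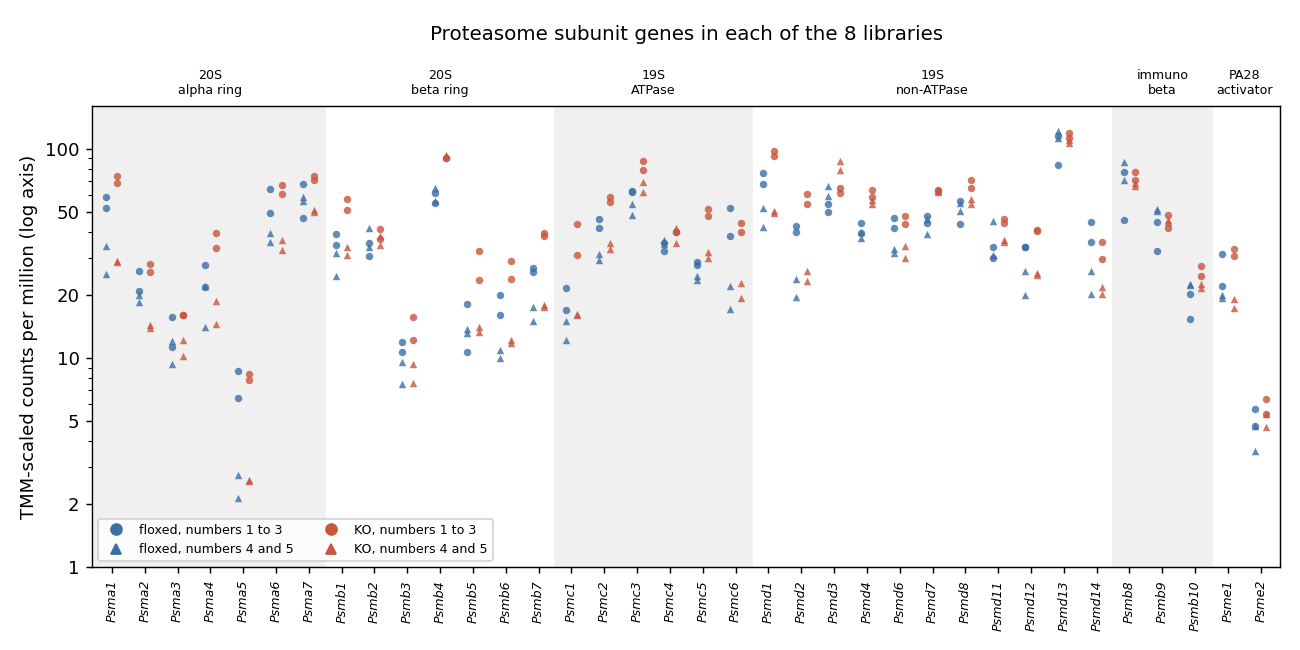
TMM-scaled CPM on a log axis for the 36 genes. Each point is 1 library, floxed in blue and KO in red, with numbers 1 to 3 as circles and numbers 4 and 5 as triangles. All KO libraries lay above all floxed libraries for Psmb4, Psmc5, Psmd4 and Psmd7 (7.1% of all genes tested). The triangles lay below all circles for 17 genes (13.3% of all genes tested).

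Levels of different members were compared per kilobase of spliced transcript. The highest floxed means were those of Psma7 (62.8 ± 9.32 CPM per kilobase, SD, n = 4), Psma6 (60.1 ± 16.1) and Psmd13 (54.4 ± 8.32), followed by Psmb4 (50.2 ± 4.01). Each of these differed from its neighbour in the order by less than their spread. The lowest were Psma5 (4.04 ± 2.50), Psma3 (4.25 ± 0.924) and Psme2 (5.90 ± 1.08), each with far copies that hold more counts than the member. Psmb8 led the immunoproteasome genes at 43.1 ± 10.8. The order depended on the length used, and per kilobase of genomic span Psmb4 had rank 1 and Psma6 rank 24 of 36.

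The design asks first whether loss of asrij altered the transcripts of the proteasome. All 36 members passed the filter on low counts. The log2 fold change of KO over floxed was above 0 for 33 of 36 members, against 49.6% of all genes tested, and its median was 0.23 against -0.01 for all genes. 1 member passed an adjusted p under 0.05, as 2.97% of all genes did (edgeR quasi-likelihood test with Benjamini-Hochberg adjustment), and 5 had an unadjusted p under 0.05, as 21.8% of all genes did. Over all genes 1.22% were called higher and 1.75% lower. No member reached the study's thresholds, an adjusted p under 0.05 with an absolute log2 fold change over 1.5, which 1.19% of genes reached. With library size alone as the scaling the median of all genes moved to -0.20 and that of the members to 0.06, and 22 of 36 members were above 0, as 34.6% of all genes were.

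**Figure D2:**
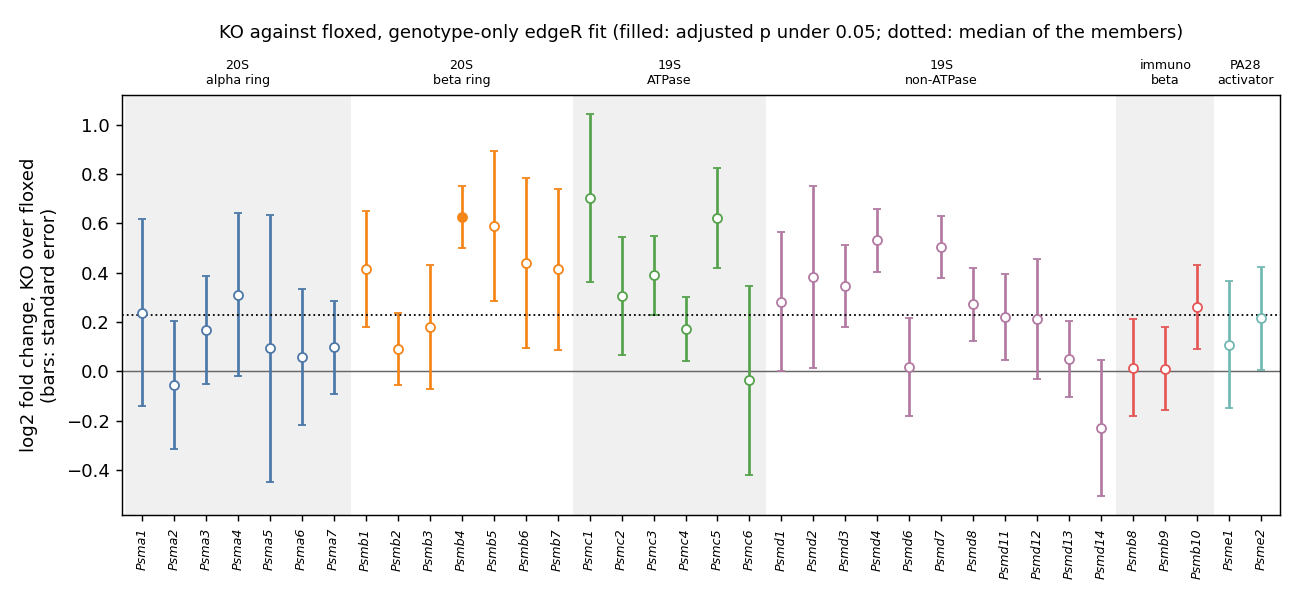
Log2 fold change of KO over floxed in the genotype-only edgeR fit for each gene, grouped by complex, with bars for the standard error and a filled point for an adjusted p under 0.05. Only Psmb4 is filled, 33 of 36 points lie above 0, and the bars are widest for genes such as Psma5 whose libraries split by number.

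Psmb4, which encodes a non-catalytic beta subunit, was the member that passed (ENSMUSG00000005779.12, chr3:94884093-94886961, GRCm38, minus strand). It lay at 61.4, 54.8, 56.4 and 65.1 CPM in floxed replicates 1, 3, 4 and 5, and at 90.2, 90.7, 93.3 and 92.3 CPM in KO replicates 2, 3, 4 and 5. All KO libraries were above all floxed libraries, as for 7.1% of all genes, and no member had the reverse order, which 7.66% of genes had. The means were 59.4 ± 4.74 and 91.6 ± 1.47 CPM (SD, n = 4 each), and the log2 fold change was 0.63 (SE 0.13, adjusted p = 0.0348, edgeR). Psmb4 had no far copy and overlapped no other counted gene. The call was lost without any 1 of floxed replicates 1, 4 and 5 and KO replicates 2, 3, 4 and 5, with log2 fold changes of 0.60 to 0.68 and adjusted p of 0.0758 to 0.128, and it was kept without floxed replicate 3 (adjusted p = 0.00536). Pairing the libraries numbered 3, 4 and 5 by replicate number gave 0.67 (adjusted p = 0.15).

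3 more members had every KO library above every floxed library, all 3 of them 19S genes, as are 17 of the 36 members. With Psmb4 this order was found for 4 of 36 members, against 7.1% of all genes. Psmd4, a ubiquitin receptor, lay at 39.7, 44.2, 37.6 and 40.2 CPM in floxed and at 63.6, 58.5, 57.0 and 54.5 CPM in KO (log2 fold change 0.53, SE 0.13, adjusted p = 0.0545). Psmd7, the partner of the deubiquitinase Psmd14, lay at 44.2, 47.8, 46.1 and 39.3 CPM in floxed and at 63.1, 63.3, 62.2 and 62.8 CPM in KO (0.50, SE 0.13, adjusted p = 0.0602). Psmc5, an ATPase, lay at 27.9, 28.7, 24.8 and 23.6 CPM in floxed and at 51.6, 47.7, 30.1 and 32.2 CPM in KO (0.62, SE 0.20, adjusted p = 0.115). KO replicates 2 and 3 were the high ones for Psmc5, whereas the 4 KO libraries of Psmd7 differed by little (SD 0.499).

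Psmb4 and Psmd4 lie on chromosome 3 with 146 kb between them, and this was looked at after their values were seen. Of the 9 other genes tested between them, 0 had an adjusted p under 0.05 in the edgeR fit and 2 an unadjusted p under 0.05, and their median log2 fold change was -0.13. The 250 bases before the start of each are printed because the groups did not overlap for both genes (RefSeq, GRCm38.p6, minus strand for both, 5′ to 3′). Capitals mark a match to the interferon-stimulated response element, searched as GAAA, any 2 bases and GAAA again, on both strands.
Psmb4, chr3:94886959-94887208: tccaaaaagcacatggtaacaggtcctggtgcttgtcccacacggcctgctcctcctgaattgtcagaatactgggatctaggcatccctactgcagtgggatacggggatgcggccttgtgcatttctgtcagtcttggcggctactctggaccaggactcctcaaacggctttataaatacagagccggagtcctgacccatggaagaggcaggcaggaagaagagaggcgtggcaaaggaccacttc
Psmd4, chr3:95042615-95042864: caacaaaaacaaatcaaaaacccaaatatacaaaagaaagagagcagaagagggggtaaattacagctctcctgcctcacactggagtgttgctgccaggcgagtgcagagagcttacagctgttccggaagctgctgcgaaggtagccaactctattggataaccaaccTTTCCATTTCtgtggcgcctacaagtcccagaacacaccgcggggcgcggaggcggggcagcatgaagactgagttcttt
A match to this motif was found before 2 of the 30 members (6.67%) with a promoter in the table, Psmb3 and Psmd4, and before 3.46% of all genes in it.

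The constitutive catalytic genes did not pass the genotype test. Psmb5, which encodes the chymotrypsin-like site, lay at 18.1, 10.7, 13.7 and 13.1 CPM in floxed and at 32.5, 23.7, 13.4 and 14.1 CPM in KO (log2 fold change 0.59, SE 0.30, adjusted p = 0.295). Psmb6, which encodes the caspase-like site, lay at 19.9, 16.0, 9.95 and 11 CPM in floxed and at 29.1, 24, 11.8 and 12.2 CPM in KO (0.44, SE 0.34, adjusted p = 0.502). Psmb7, which encodes the trypsin-like site, lay at 25.7, 26.8, 17.5 and 15 CPM in floxed and at 39.7, 38.2, 17.9 and 17.5 CPM in KO (0.41, SE 0.33, adjusted p = 0.504). KO replicates 2 and 3 were highest for all 3 genes, and the groups overlapped. For Psmb6 and Psmb7, but not for Psmb5, every library numbered 4 or 5 was below every other library. The far copies of Psmb5 and Psmb6 held more counts than these genes.

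The inducible counterparts gave another picture. Psmb8 lay at 77.5, 45.8, 70.7 and 86.7 CPM in floxed and at 77.8, 71.1, 66.5 and 68.3 CPM in KO (log2 fold change 0.02, SE 0.20, adjusted p = 0.976). Psmb9 lay at 44.6, 32.5, 50.1 and 51.5 CPM in floxed and at 48.0, 41.7, 45.6 and 44.7 CPM in KO (0.01, SE 0.17, adjusted p = 0.98). Psmb10 lay at 20.1, 15.4, 22.5 and 22.7 CPM in floxed and at 27.6, 24.7, 22.6 and 21.7 CPM in KO (0.26, SE 0.17, adjusted p = 0.413). Floxed replicate 3 was the lowest library for each of the 3, and the remaining values of Psmb8 and Psmb9 overlapped between the groups. Near Psmb8 and Psmb9 on chromosome 17, H2-DMa (13.1 CPM) and H2-DMb1 (11.6 CPM) were also lowest in that library, whereas H2-Ob (37.5 CPM) was highest there. Psmb10 lies on chromosome 8. The PA28 genes did not pass the test either, with Psme1 at 0.11 (SE 0.26, adjusted p = 0.847) and Psme2 at 0.21 (SE 0.21, adjusted p = 0.603).

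As a ratio of levels per kilobase, Psmb8 over Psmb5 lay at 2.37, 2.35, 2.84 and 3.65 in floxed and at 1.32, 1.66, 2.74 and 2.68 in KO, with means of 2.81 ± 0.61 and 2.10 ± 0.72 (SD, n = 4 each). Psmb9 over Psmb6 lay at 0.973 to 1.32 in the libraries numbered 1 to 3 and at 2.15 to 2.97 in those numbered 4 and 5. Within each genotype both ratios were higher in every library numbered 4 or 5. They rest on counts of Psmb5 and Psmb6 without their copies, and on Psmb8 and Psmb9, which overlap Gm20496 and Tap1. Only the spliced length was used for them.

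The promoters of Psmb5, Psmb6 and Psmb8 are printed because, of the catalytic genes, these held a match to a motif of a known regulator of constitutive or inducible subunits, while those of Psmb9 and Psmb10 held none of the antioxidant, interferon-stimulated and gamma-activated motifs and that of Psmb7 was not in the table (RefSeq, GRCm38.p6, 250 bases before the start, 5′ to 3′). Capitals mark the antioxidant response element, searched as TGACNNNGC, in Psmb5 and Psmb6 and the gamma-activated site, searched as TTCNNNGAA, in Psmb8, each on both strands.
Psmb5, chr14:54617996-54618245, minus strand: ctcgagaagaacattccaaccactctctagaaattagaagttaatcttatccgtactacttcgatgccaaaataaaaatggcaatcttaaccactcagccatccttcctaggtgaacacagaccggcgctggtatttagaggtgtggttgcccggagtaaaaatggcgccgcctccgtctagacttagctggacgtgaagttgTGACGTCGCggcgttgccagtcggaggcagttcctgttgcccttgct
Psmb6, chr11:70525107-70525356, plus strand: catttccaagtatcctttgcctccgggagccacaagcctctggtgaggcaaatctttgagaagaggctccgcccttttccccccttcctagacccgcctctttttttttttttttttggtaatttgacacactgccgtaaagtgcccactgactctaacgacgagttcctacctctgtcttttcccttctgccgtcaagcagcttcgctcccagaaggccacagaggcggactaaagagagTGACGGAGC
Psmb8, chr17:34197945-34198194, plus strand: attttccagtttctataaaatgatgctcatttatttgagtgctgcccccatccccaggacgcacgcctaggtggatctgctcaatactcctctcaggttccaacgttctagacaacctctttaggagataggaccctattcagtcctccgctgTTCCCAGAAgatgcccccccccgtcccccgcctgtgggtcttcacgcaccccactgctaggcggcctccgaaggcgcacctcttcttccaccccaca
The antioxidant response element was matched before 4 of 30 members (13.3%, namely Psmb5, Psmb6, Psmc6 and Psmd12) and 11.5% of all genes. The gamma-activated site was matched before 1 of 30 members (3.33%), Psmb8, and 8.13% of all genes.

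Each complex was then counted in the genotype-only fit. The 20S genes had a median log2 fold change of 0.21, with 13 of 14 above 0 and 1 called. Leaving out 1 library moved this median to between 0.074 (without KO replicate 2) and 0.41 (without KO replicate 5), with 0.084 without floxed replicate 5. The 7 beta ring genes had a median of 0.42 and the 7 alpha ring genes one of 0.10. The 19S genes had a median of 0.28, with 15 of 17 above 0 and 0 called in the edgeR test. An unadjusted p under 0.05 was found for 4 of the 17 in edgeR, against 21.8% of all genes. Psmd4, Psmd7 and Psmc5 passed in DESeq2. With Psmb4, DESeq2 called 4 of the 36 members, and it called 11.2% of all genes (5.11% higher). The 5 immunoproteasome genes had a median of 0.11, with 5 above 0, 0 called by edgeR or DESeq2 and 0 at an unadjusted p under 0.05. The largest increases were those of Psmc1 (0.70, SE 0.34, adjusted p = 0.263), Psmb4, Psmc5 and Psmb5. The members below 0 were the deubiquitinase gene Psmd14 (-0.23, SE 0.28, adjusted p = 0.683), the alpha ring gene Psma2 (-0.06, SE 0.26, adjusted p = 0.929) and the ATPase gene Psmc6 (-0.04, SE 0.38, adjusted p = 0.973).

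Marker transcripts of some other cell types differed with genotype beside these genes. Of 7 megakaryocyte and platelet markers 6 were higher in KO at an adjusted p under 0.05, against 1.22% of all genes, and their summed level was 35.4 to 89.1 CPM in floxed and 184 to 197 CPM in KO. Of 12 erythroid markers 3 were higher, with summed levels of 28114 to 71120 CPM and 123455 to 296122 CPM. Of 12 neutrophil and monocyte markers 0 were called by edgeR or reached an unadjusted p under 0.05, and 11 were below 0 (median -0.52). Their sums were 51170, 18535, 59649 and 54579 CPM in floxed replicates 1, 3, 4 and 5. In KO replicates 2, 3, 4 and 5 they were 34541, 31234, 28296 and 28450 CPM, so only floxed replicate 3 lay below KO. Within numbers 4 and 5, 12 were below 0 (median -0.84). In edgeR 5 of these had an unadjusted p under 0.05 (24.9% of all genes) and 0 were called. Within numbers 1 to 3, 8 were below 0 (median -0.09). 2 of 10 B and plasma cell markers were higher and 1 lower, and 1 of 8 T and NK cell markers was lower. 0 of 7 dendritic cell markers were called, with 1 at an unadjusted p under 0.05 (edgeR). Of the 11 stem and progenitor markers 1 was called higher and 0 lower in edgeR. Their log2 fold changes ran from -0.44 to 1.48, with 5 above 0 and 6 below. No marker of these lists was at 0 in all libraries, and their part in the proteasome values was not tested. In bulk RNA, fewer cells of a type and less RNA per cell cannot be told apart.

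With the library-number range as a term, 6 members passed the test, all of them higher in KO, against 8.88% of all genes that were higher and 9.65% that were lower. They were Psmb4 (0.63, adjusted p = 0.0062), Psmc5 (0.59, adjusted p = 0.0122), Psmc3 (0.39, adjusted p = 0.0307), Psmd3 (0.34, adjusted p = 0.0477), Psmd4 (0.53, adjusted p = 0.00877) and Psmd7 (0.50, adjusted p = 0.0117). 5 of the 6 are 19S genes, and 0 of the 5 immunoproteasome genes passed in edgeR. Psmc3, an ATPase, lay at 62.0, 62.9, 48.1 and 54.4 CPM in floxed and at 87.8, 78.8, 69.5 and 62.0 CPM in KO. Psmd3, a non-ATPase subunit, lay at 50, 54.2, 59.4 and 66.6 CPM in floxed and at 64.9, 61.3, 87.8 and 78.8 CPM in KO. For both genes KO exceeded floxed within each range, although the groups overlapped when the ranges were pooled. Leaving out 1 library gave 3 to 11 members, with 3 without KO replicate 2 and 11 without floxed replicate 3, and Psmb4, Psmd4 and Psmd7 were called in every such fit. Without floxed replicate 3, 41.7% of all genes were called, and without KO replicate 2, 6.79%. With library size alone as the scaling 1 member passed (Psmb4), where 22.7% of all genes did (3.88% higher), and DESeq2 called 9, where 25.7% of all genes passed (13.2% higher).

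Within numbers 1 to 3, where 2 KO libraries were set against 2 floxed libraries in a fit of all 8, the median of the members was 0.36 against -0.01 for all genes, and 34 of 36 were above 0, as 49.0% of all genes were. 5 members passed, all higher, against 8.57% of all genes, 3.98% higher and 4.59% lower. An unadjusted p under 0.05 was found for 17 members and 28.3% of all genes. The 5 members that passed in edgeR included Psmb4 (0.64, adjusted p = 0.0372), Psmb7 (0.57, adjusted p = 0.0469) and Psmc1 (0.96, adjusted p = 0.0333). Psmc5 (0.81, adjusted p = 0.0189) and Psmd4 (0.54, adjusted p = 0.0483) were the others. Psmc1, an ATPase of the 19S base, lay at 16.9 and 21.5 CPM in floxed replicates 1 and 3 and at 43.7 and 31.0 CPM in KO replicates 2 and 3. It lay at 15, 12.2, 16.1 and 16.0 CPM in floxed 4 and 5 and KO 4 and 5. The count rested on single libraries, and calls over all genes moved with the library left out as well. A separate fit of these 4 libraries called 0 members, where 0.00855% of all genes were called. With 1 library left out the median of the members was 0.36 (without floxed replicate 4) to 0.50 (without floxed replicate 1).

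Within numbers 4 and 5 the median of the members was 0.08 against 0.01 for all genes, 21 of 36 were above 0, as 50.5% of all genes were, and 0 passed in the edgeR fit, in which 1.94% of all genes passed (1.21% higher and 0.731% lower). 7 members had an unadjusted p under 0.05, as 24.9% of all genes did, and DESeq2 called 3 (Psmb4, Psmd4 and Psmd7) with 11.5% of all genes. The change was 0.61 for Psmb4 (SE 0.15, adjusted p = 0.0653), 0.52 for Psmd4 (SE 0.14, adjusted p = 0.0796) and 0.55 for Psmd7 (SE 0.14, adjusted p = 0.0749). The alpha ring had a median of -0.12 here and the ATPases one of 0.21, with 6 of 6 ATPases above 0. Without floxed replicate 1, or without floxed replicate 3, the count was 7, with Psma2 lower and the other 6 higher, and 30.8% and 31.4% of all genes were called.

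**Figure D3:**
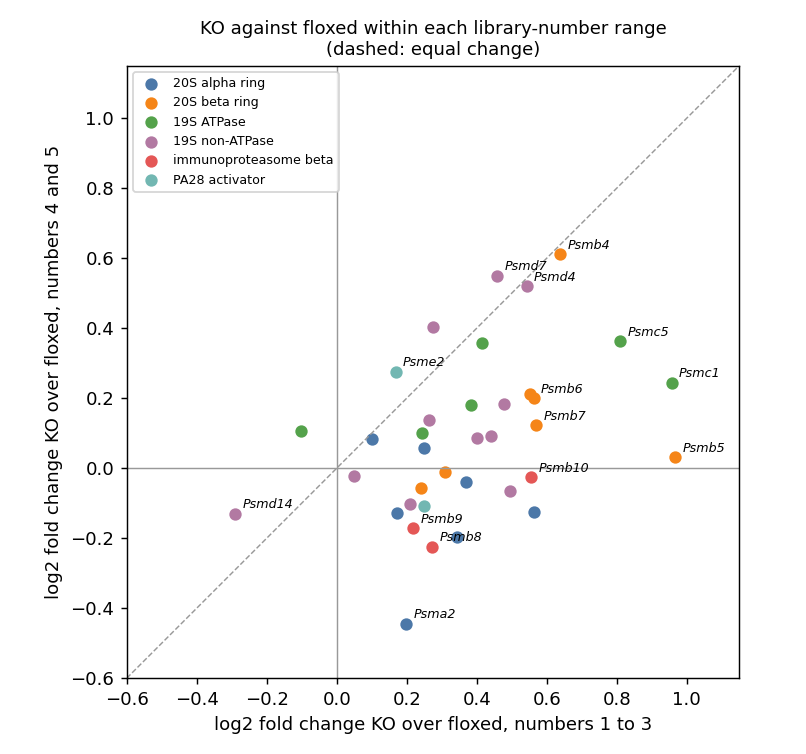
Log2 fold change of KO over floxed within numbers 1 to 3 (horizontal) and within numbers 4 and 5 (vertical) for the 36 genes, coloured by class. Psmb4, Psmd4 and Psmd7 lie near the dashed line of equal change, and most other points lie below it, among them Psmb5 at 0.97 and 0.03.

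The difference between the ranges was tested as an interaction. Its median was -0.31 over the members and 0.03 over all genes, and 31 of 36 members were below 0, while 52.0% of all genes were above 0. 0 members passed the test in edgeR or DESeq2, 5 had an unadjusted p under 0.05, as 8.51% of all genes did, and percent called over all genes was 0.0 in edgeR. The largest difference was that of Psmb5 (-0.94, SE 0.36, adjusted p = 0.57), and Psmb4 differed by -0.03 (SE 0.21, adjusted p = 0.966). Without floxed replicate 1 the interaction called 11 members, all below 0, where 28.5% of all genes were called (16.5% below 0), and it called 0 members without any other library.

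Members also differed between the library-number ranges. The ranges are named in no label and had been seen in earlier results of these same counts. The values between ranges, here and for the copies below, therefore describe the libraries, and their p-values are not an independent test. In numbers 4 and 5 against 1 to 3 with genotype in the fit, the median log2 fold change was -0.52 over the members and -0.07 over all genes. 20 members were lower and 1 higher at an adjusted p under 0.05, against 16.3% and 14.5% of all genes. An unadjusted p under 0.05 was found for 23 members and 42.5% of all genes. Every library numbered 4 or 5 was below every library numbered 1 to 3 for 17 members, as for 13.3% of all genes. The 20S genes fell in 9 of 14 cases and the 19S genes in 10 of 17. Psma5 fell by 1.63 on the log2 scale (SE 0.17, adjusted p = 0.000302), Psmc6 by 1.10 (SE 0.14, adjusted p = 0.000743) and Psmd2 by 1.08 (SE 0.12, adjusted p = 0.000368). Psmd3 rose by 0.34 (SE 0.10, adjusted p = 0.0337). Psmb8, Psmb9 and Psmb10 had values of 0.10, 0.20 and 0.05, and Psmb4 one of 0.05, and none of these passed. The count of members called was 12 without KO replicate 4 and 11 without KO replicate 5.

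The far copies went the other way. Psmb5 had a mean of 21.3 CPM in numbers 1 to 3 and 13.6 CPM in numbers 4 and 5. Its copy Gm3375 lay at 28.6, 25.1, 37.1 and 33.3 CPM in floxed 1 and 3 and KO 2 and 3, and at 48.6, 54.3, 73.5 and 70.5 CPM in floxed 4 and 5 and KO 4 and 5. Every library numbered 4 or 5 was above every one numbered 1 to 3, and the log2 fold change of Gm3375 was 0.99 (SE 0.10, adjusted p = 0.000281). Psmb6-ps2, the copy of Psmb6, rose by 1.03 (SE 0.14, adjusted p = 0.00107). Of the 26 copies tested 12 rose and 2 fell at an adjusted p under 0.05 (edgeR), with a median of 0.29. Of 2900 processed pseudogenes 790 rose and 615 fell by the same rule, with a median of 0.15. Of 14048 protein-coding genes of 2 or more exons 1742 rose and 2388 fell, with a median of -0.09.

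The share of counts listed for copies rose accordingly. For Psmb6 the copy took 51.4% to 54.2% of member and copy together in numbers 1 to 3 and 81.4% to 82.0% in numbers 4 and 5. For Psmd2 the shares were 65.0% to 73.9% and 86.0% to 89.7%. In 13 of the 16 members with copies every library numbered 4 or 5 had a higher share than every other library, in both genotypes. The exceptions were Psma3, Psmd11 and Psme2. The copies of Psmd11 overlap each other, Gm14048 lying within A730017L22Rik on chromosome 2, so the same reads can enter the copy sum of Psmd11 through both.

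**Figure D4:**
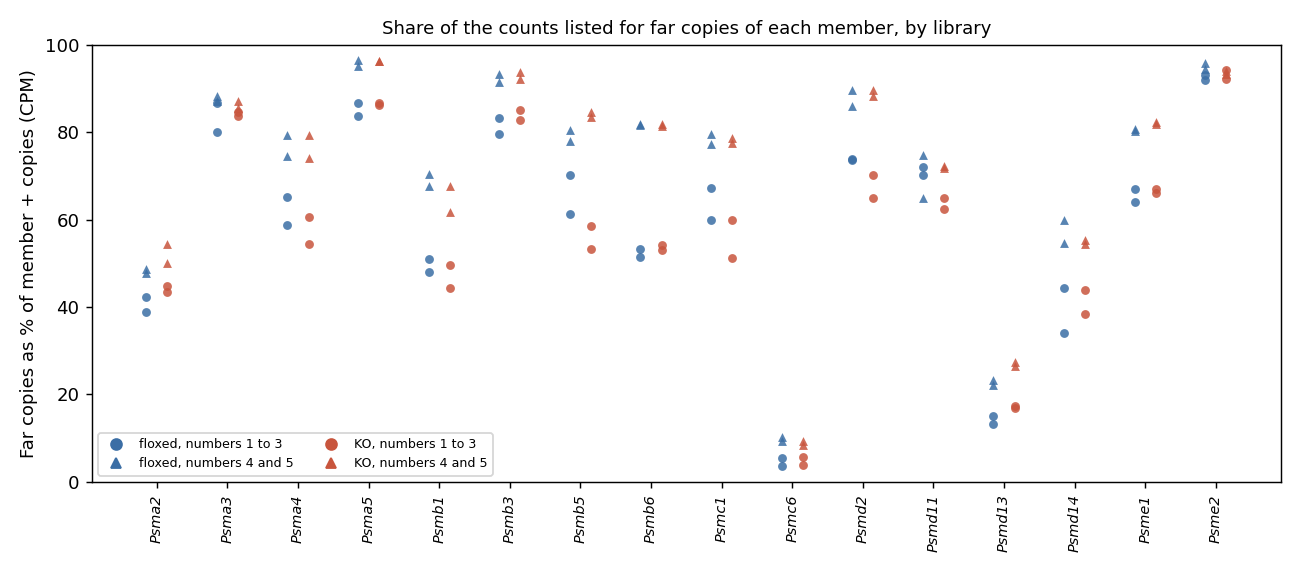
Share of the counts listed for far copies, as a percent of the CPM of member and copies together, for the 16 members with copies. Triangles (numbers 4 and 5) lie above all circles (numbers 1 to 3) for 13 of the 16, in both genotypes.

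When the counts of the copies were added to the member, an alternative chosen after seeing the data, the median of the 36 members between the ranges was 0.0011 in place of -0.52, and the members called went from 21 to 13, 3 of them higher. Psmb5 then rose by 0.55 (SE 0.13, adjusted p = 0.0107) and Psmb3 by 0.66 (SE 0.14, adjusted p = 0.00753), and Psma5 had a value of 0.20 (SE 0.10, adjusted p = 0.141) in place of -1.63. Members without a copy kept their values, among them Psma1 at -1.10 and Psmb7 at -0.92. For KO against floxed the same addition left the count of members called at 1, with 34 of 36 above 0 and medians of 0.24, 0.27 and 0.10 for 20S, 19S and immunoproteasome genes.

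**Figure D5:**
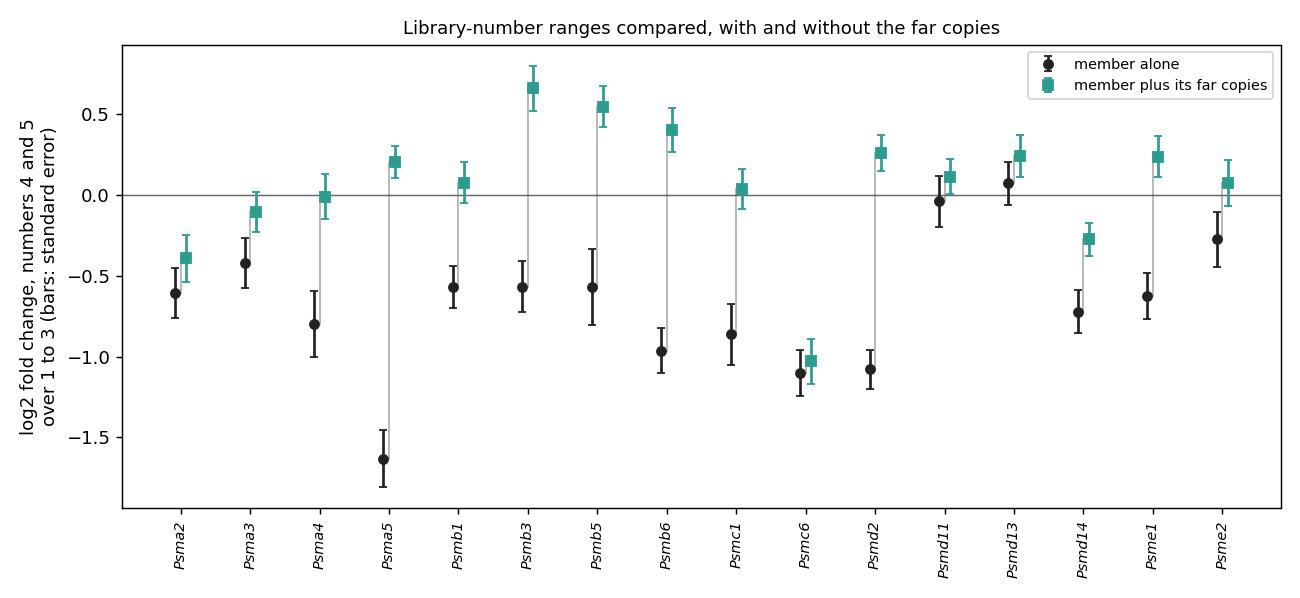
Log2 fold change of numbers 4 and 5 over numbers 1 to 3 for the 16 members with far copies, counted alone (black circles) and with the copies added (green squares), with bars for the standard error. Of the genes called at an adjusted p under 0.05 (edgeR) in either fit, 8 with a value below 0 alone lie above 0 once the copies are added. Genes called in neither fit are not in this count. Psma5 moves from -1.63 to 0.20, while Psmc6, whose copy holds few counts, stays at -1.03.

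Base composition moved with the library number as well. Across the 36 members the log2 fold change between ranges had a Spearman rho of 0.54 and a Pearson r of 0.52 with the GC content of the spliced transcript, against 0.61 and 0.55 across 14501 protein-coding genes. These are descriptions across genes of the same libraries, and genes are not independent replicates. The 18 members of lower GC (37.0% to 50.4%) had a median of -0.68 between ranges, and the 18 of higher GC (51.0% to 58.3%) one of -0.11. For KO over floxed the medians were 0.22 and 0.27, and rho was 0.28 across members and 0.34 across protein-coding genes. With an offset for GC content, chosen after seeing the data, 18 members were lower in numbers 4 and 5 and 0 higher in edgeR, where 8.48% of all genes were lower and 8.66% higher, and the immunoproteasome median went from 0.05 to -0.25.

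Other genes of the pathway were counted from lists. Of 14 further proteasome genes 13 were tested. In edgeR 2 were called higher in KO and 0 lower, against 1.22% and 1.75% of all genes. Psme3, which encodes the nuclear PA28 gamma activator, lay at 160, 226, 189 and 174 CPM in floxed and at 306, 302, 356 and 360 CPM in KO (log2 fold change 0.82, SE 0.17, adjusted p = 0.0381). Psmd9, a chaperone of 19S assembly, lay at 16.2, 27.5, 16.9 and 15.8 CPM in floxed and at 41.9, 35.4, 38.1 and 36.8 CPM in KO (0.99, SE 0.20, adjusted p = 0.0369). For both genes every KO library lay above every floxed library, as for 4 of the 13 genes and 7.1% of all genes. Both changes were larger than that of any member. Ecpas had the largest decrease of that list, -0.54 (adjusted p = 0.35).

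Among 9 assembly chaperones the median was 0.33 with 1 called, Psmd9, which is also counted among the further proteasome genes above. Among 11 genes of the NRF1 route, which raises proteasome genes when the proteasome is impaired, the median was -0.07 and 0 were called in edgeR. Of these 11, 3 had an unadjusted p under 0.05, against 21.8% of all genes. Mafk at 0.66 (adjusted p = 0.13, edgeR) and Sel1l at -0.55 (adjusted p = 0.0775) were at the ends. Among 13 genes of ubiquitin supply and shuttling the median was 0.088 and 7 were above 0. Of these genes 0 were called in edgeR, with 3 of 13 at an unadjusted p under 0.05, against 21.8% of all genes. With the library-number range as a term 4 of them were higher and 1 lower, against 8.88% and 9.65% of all genes. The same fit called 4 higher and 1 lower of the further proteasome genes, 2 and 0 of the chaperones and 2 and 1 of the NRF1 route. It called 0 and 1 of the interferon and class I partners and 1 and 0 of the Pde4 genes. Among 16 interferon and class I partners the median was -0.11 and 0 were called (1 at an unadjusted p under 0.05), with Tap2 at 0.20 and Ifngr1 at -0.64 (adjusted p = 0.1). Of the 4 Pde4 genes, which encode phosphodiesterases that degrade cyclic AMP, Pde4d rose from 187 ± 46.2 to 378 ± 33.8 CPM (SD, n = 4 each, log2 fold change 1.01, SE 0.21, adjusted p = 0.0365), and the largest decrease was that of Pde4c (-0.86, adjusted p = 0.15).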

How the data were processed

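RNA-seq of sorted LT-HSCs from 4 asrij floxed and 4 asrij KO mice was analysed. Per the study's methods and the submitters' processing notes, the authors used FastQC for read quality, Trim Galore for adapters and Bowtie2 for alignment. The methods name reference transcripts of GRCm38/mm10 as the target. How that relates to deposited counts that took in introns and both strands is not given in the sources used here. The deposited files hold raw counts for 138930 transcripts per library, of which 138789 matched GENCODE M21. The counter, versions and strand setting are not given in the sources used here. Each gene took the transcript with its highest total over the 8 libraries, so reads that match several genes or lie over introns enter these values.

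Counts were fitted with edgeR 4.0.16 (quasi-likelihood, filterByExpr by genotype, TMM factors, Benjamini-Hochberg adjustment over 21902 genes) in R 4.3.3, by genotype alone, with library-number range as a term, and by genotype and range crossed. limma 3.58.1 and DESeq2 1.42.0 were alternatives. SE is the absolute log2 fold change over the square root of the F statistic. Library totals of 23412829 to 44874882 gene counts and 4 libraries per group set the precision, and total counts of members over the 8 libraries ran from 1407 to 29567. The fits were checked on simulated counts of KO against floxed over 21902 genes. There the genotype-only fit recovered 16% of genes with a log2 change of 1 and 99% of those with a change of 2 (81% and 100% with the range term). It called 0% of unchanged genes. The simulation gave every gene the same dispersion, added a range effect alike in both genotypes and changed only genes above a set level. No simulated library stood apart as floxed replicate 3 did, so recovery in the real libraries can differ.

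Same-numbered floxed and KO libraries deviated together (correlations 0.374, 0.394 and 0.579 for numbers 3, 4 and 5), as did libraries of other numbers within a range, so a fit with the replicate block was also made. Mice are independent per the methods, and no pair of libraries of a group agreed within sampling noise. The members and lists were chosen with earlier results of these data known. Values are given per library for the catalytic and immunoproteasome genes, for members with an adjusted p under 0.05 in the genotype, within-range or interaction tests, and for the largest changes. From other lists, genes with an adjusted p under 0.05 or the largest change in each direction are named. The largest changes of 1 list are not reported here. Far copies were found by shared 50-base stretches and have at most 2 exons. Promoters were available for 30 of 36 members.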

Additional observations from a re-analysis of the deposited data

How the results depend on the processing

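For KO against floxed over all genes, 651 genes passed an adjusted p under 0.05. The count was 2444 with DESeq2, 1209 with a GC-content offset, 4059 with library-number range as a term, and 358 among genes that overlap no other. With the replicate block on the libraries numbered 3, 4 and 5 it was 48, and on these 6 libraries without the block 24. Leaving out 1 library gave 61 (without floxed replicate 1) to 3875 (without floxed replicate 3).

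The count of proteasome members called was 1 in the genotype-only fit. It was 4 with DESeq2, 2 with the GC-content offset, 2 with RLE factors, 2 with sums over transcripts, 6 with the range as a term, and 0 with library size alone, without a filter, with the replicate block and with the 6 libraries unblocked. Leaving out 1 library gave 0 to 3, with 3 without floxed replicate 3. The medians of the 3 complexes moved by less than their spread over libraries (0.399, 0.221 and 0.198), but by over 1.5 times in several fits. That of the 20S genes was 0.041 with library size alone and 0.074 to 0.41 with 1 library left out, that of the 19S genes 0.11 and 0.18 to 0.35, and that of the immunoproteasome genes -0.058 and -0.011 to 0.28. With library size alone the median of all genes was -0.20.

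Within numbers 1 to 3 the count of 5 members was 1 with library size alone, 9 with DESeq2 and 0 in a separate fit of each range, and leaving out 1 library gave 0 to 24. Within numbers 4 and 5 the count of 0 was 1 with library size alone, 3 with DESeq2 and 7 in a separate fit, and leaving out 1 library gave 0 to 7. The interaction gave 0 to 11. Between the ranges the count of 21 was 13 with the far copies added, and leaving out 1 library gave 11 to 23. Where such a fit left 1 library in an arm, that library was assumed to vary like the others. With the copies added, 8 members called at an adjusted p under 0.05 (edgeR) in either fit turned direction between the ranges. They were Psma5 (0.20), Psmb1 (0.076), Psmb3 (0.66), Psmb5 (0.55), Psmb6 (0.40), Psmc1 (0.035), Psmd2 (0.26) and Psme1 (0.24). Members called in neither fit were not counted. With the GC-content offset Psmd3 turned to -0.14. The GC-content offset, the copies added and the unblocked fit of 6 libraries were chosen after seeing the data. Beyond these constructions the cause of each change was not tested. In simulated data of this size the genotype-only fit recovered 16% of log2 changes of 1 and the fit with the range term 81%. That simulation gave every gene the same dispersion and had no library that stood apart.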
